A study of Homo sapiens with 15 samples.

Results

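The comparison set 6CD2m cells on Tubastatin A against 8CDm cells on PCI-34051, each after 2 days. HT1080 is a human fibrosarcoma line. In 6CD2m the endogenous KDAC6 gene carries H611A, which inactivates the second catalytic domain of this lysine deacetylase (KDAC). In 8CDm the endogenous KDAC8 gene carries H143A, which inactivates KDAC8. The 6CD2m cells received 1 µM Tubastatin A, an inhibitor developed against KDAC6, and the 8CDm cells received 5 µM PCI-34051, developed against KDAC8. All groups share the HT1080 parent, the medium and the serum, and both lines were made by CRISPR/Cas9 editing. Whether each line is 1 clone is not given in the sources used here. The line, the inhibitor and its dose change together between the 2 groups, so their parts in a difference cannot be told apart. Each group holds 3 libraries of rRNA-depleted RNA out of 15 libraries in 5 groups. The other groups are 6CD1m cells (KDAC6 H216A, first catalytic domain) on 1 µM Tubastatin A for 2 days and WT cells kept for 14 days on 1 µM Tubastatin A or on 5 µM PCI-34051. The genes described are the 54162 autosomal and mitochondrial genes out of 60675 in the table, chosen by position alone. Of these, 18708 had enough counts to be tested and 35454 had not.

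KDAC6 is a mostly cytoplasmic enzyme with a pair of catalytic domains, best known for removing acetyl groups from α-tubulin and for binding ubiquitin. KDAC8 is a class I KDAC whose best known substrate is SMC3, a subunit of the cohesin ring that holds sister chromatids together and shapes chromatin loops. HT1080 cells are of mesenchymal origin and make abundant fibronectin, collagen VI and proteases that cut the extracellular matrix.

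Library totals in the 6 libraries lay between 16527846 and 19836616 counts, and in the other 9 between 10932437 and 19983699. Levels are given as CPM, counts scaled to the library size after TMM normalisation. Over genes, log2 CPM of libraries within a group correlated at 0.986 to 0.988 and between the 2 groups at 0.941 to 0.947, as a description across genes. KDAC6 (gene HDAC6) stood at 24.4 ± 1.27 CPM (SD, n = 3) in the 6CD2m libraries and at 19.3 ± 2.4 CPM in those of 8CDm, with an adjusted p of 0.0506. KDAC8 (gene HDAC8) stood at 16.9 ± 1.01 and 18 ± 1.54 CPM, with an adjusted p of 0.703. Neither difference passed, and because the alleles carry point substitutions these levels do not check the genotypes. Mesenchymal markers summed to 5610 to 6340 CPM in treated 6CD2m cells and 8470 to 9040 CPM in treated 8CDm cells, and FN1 made up most of that gap. The 9 markers did not share a direction. COL6A1 and COL6A2 were called higher in 6CD2m (log2 fold changes, 6CD2m over 8CDm, of 0.88 and 0.57). NT5E, THY1, LGALS1 and SPARC had positive values and CD44 a negative one, without a call. VIM, the mesenchymal intermediate filament, lay between 2809 and 3113 CPM in the first group and between 3141 and 3522 CPM in the second and did not pass. Epithelial, haematopoietic, endothelial and skeletal muscle marker sums stayed below 4 CPM in all 6 libraries, and PTPRC, SOX10, ALB and MYOG had no count in any. The melanocytic and Schwann set, which includes SOX10, summed to 2.49 to 4.45 CPM in treated 6CD2m cells and 2.85 to 4.67 CPM in treated 8CDm cells, from MLANA and PMEL. LYZ, of the haematopoietic set, ranged from 0 to 3.13 CPM in treated 8CDm cells. GRHL2, of the epithelial set, was called higher in 8CDm, at no more than 1.14 CPM.

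Treated 6CD2m and treated 8CDm cells differed in many genes, with the largest differences in genes that 1 line expressed and the other hardly at all. At a false discovery rate of 0.001, 1843 of the 18708 genes tested were called (9.85%), 1015 higher in 6CD2m (5.43%) and 828 higher in 8CDm (4.43%). Their groups did not overlap in any of the 1843, against 51.7% of all genes tested. The median log2 fold change (6CD2m over 8CDm) was 1.51 among the genes higher in 6CD2m and -0.95 among those higher in 8CDm, against -0.01 over all genes tested. Differences of at least 3 on the log2 scale were held by 256 genes higher in 6CD2m and by 69 higher in 8CDm. Among the called genes, 121 had at most 3 counts in every treated 8CDm library and 28 had at most 3 in every treated 6CD2m library. Protein-coding genes made up 1647 of the calls (12.3% of 13415 tested), 910 higher in 6CD2m (6.78%) and 737 higher in 8CDm (5.49%). In bulk RNA, fewer cells that express a gene and less RNA per cell cannot be told apart. Leaving out any 1 of the 6 libraries gave between 1182 and 1227 calls, and a fit of the 6 libraries alone gave 3982. Differences below are log2 fold changes (log2FC, 6CD2m over 8CDm) ± SE from the fit over all 15 libraries, so that a positive value is higher in 6CD2m, and adjusted p-values are Benjamini-Hochberg values of the quasi-likelihood test in edgeR.

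**Figure D1:**
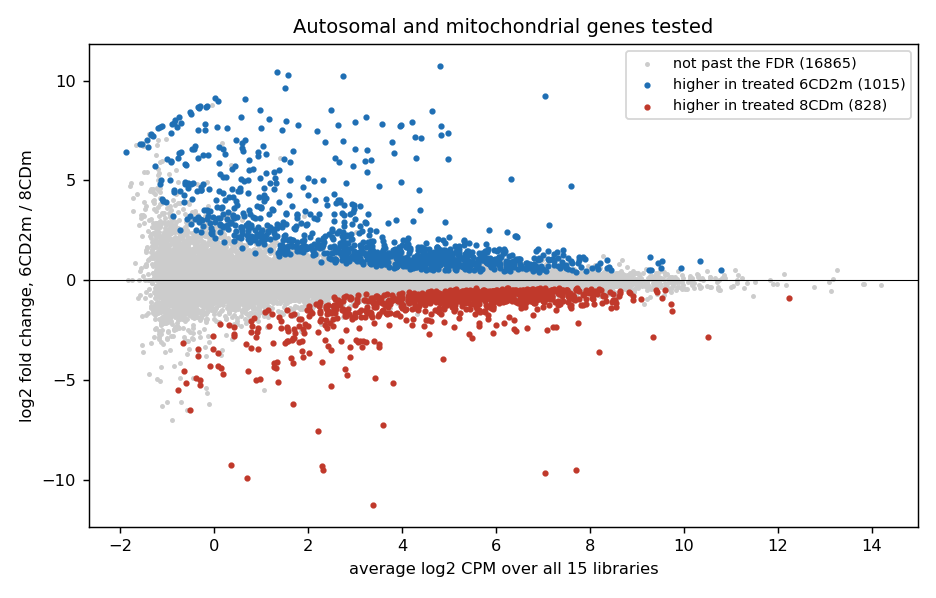
Each point is 1 autosomal or mitochondrial gene tested, with its average log2 CPM over all 15 libraries on the x axis and its log2 fold change, 6CD2m over 8CDm, on the y axis. Blue points are the 1015 genes higher in treated 6CD2m cells and red points the 828 higher in treated 8CDm cells, and the blue points reach further from 0 at low and middle levels.

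Among the genes with the largest differences, ADGRL4, an adhesion G protein-coupled receptor best known from blood vessel endothelium, stood at 38.8, 49.5 and 43.9 CPM in treated 6CD2m cells and 0.057, 0 and 0 CPM in treated 8CDm cells. Only 1 count was seen over the 3 treated 8CDm libraries, a ratio of 2420 (95% exact counting interval 435 to 95800, adjusted p = 2.85e-08). The gene was also read in the other groups, with means of 23.3 CPM in 6CD1m, 47.1 CPM in WT on Tubastatin A and 24.4 CPM in WT on PCI-34051, so among the 5 groups the 8CDm libraries were the low ones. THBS2 (thrombospondin 2), a matricellular protein that restrains angiogenesis, was likewise low in 8CDm alone. It stood at 170, 191 and 171 CPM in treated 6CD2m cells and 0.228, 0.271 and 0.376 CPM in treated 8CDm cells (log2FC of 9.21 ± 0.20, adjusted p = 6.92e-14). Its means were 134 CPM in 6CD1m and 154 and 197 CPM in WT cells on Tubastatin A and PCI-34051. PXDN, a peroxidase that cross-links collagen IV, was read at 2.49, 2.38 and 1.72 CPM in treated 6CD2m cells and had no count in treated 8CDm cells, which makes it at least 13.3-fold higher (floor of 3 counts per library, adjusted p = 1.13e-07). In this gene the 6CD2m level was itself low, since WT cells held means of 17.4 and 19 CPM. CHST15, a sulfotransferase of chondroitin sulfate chains, was at 5.51, 6.99 and 6.23 CPM against 0, 0 and 0.0537 CPM, a ratio of 343 (61.2 to 13600), with adjusted p = 5.47e-10.

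Another set stood higher in treated 6CD2m cells than in each of the other 4 groups. MARCKS, a myristoylated substrate of protein kinase C that binds actin and the plasma membrane, stood at 30.7, 31.2 and 29.8 CPM in treated 6CD2m cells and 0, 0 and 0.0537 CPM in treated 8CDm cells, 1 count in all on the 8CDm side and a ratio of 1670 (299 to 66000, adjusted p = 6.1e-10). The means of the other groups were 0.107, 0.35 and 1.26 CPM, each below every 6CD2m library. GLB1L2, a gene related to lysosomal β-galactosidase, was at 10.7, 9.52 and 10.3 CPM in treated 6CD2m cells and without a count in treated 8CDm cells (at least 61.7-fold, adjusted p = 9.91e-08). ANO5, an anoctamin membrane protein mutated in muscular dystrophy, was at 9.83, 9.52 and 8.45 CPM against no count (at least 56.2-fold, adjusted p = 2.37e-08). The group means elsewhere did not pass 1 CPM for GLB1L2 and lay between 1.02 and 2.21 CPM for ANO5. CILP, a cartilage matrix protein, was at 10.8, 11.5 and 11.6 CPM against 0, 0 and 0.107 CPM, a ratio of 309 (85.2 to 2560, adjusted p = 5.93e-07). IRX1, an Iroquois homeobox factor of limb and lung development, was at 5.8, 6.59 and 5.51 CPM against no count in treated 8CDm cells (at least 36.2-fold, adjusted p = 3.2e-08), with means between 2 and 3.25 CPM in the other groups.

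Fewer called genes were at the floor of 3 counts per library in treated 6CD2m cells (28, against 121 in treated 8CDm cells), and FLNC and EPB41L3 stood a little above it. FLNC (filamin C), which cross-links actin filaments, stood at 0.592, 0.253 and 0.278 CPM in treated 6CD2m cells and 256, 279 and 282 CPM in treated 8CDm cells (log2FC of -9.51 ± 0.18, adjusted p = 2.67e-14). EPB41L3, a band 4.1 protein that ties membrane proteins to spectrin and actin, stood at 0.296, 0.203 and 0.222 CPM in treated 6CD2m cells and 193, 202 and 205 CPM in treated 8CDm cells (log2FC of -9.67 ± 0.29, adjusted p = 3.04e-12). For both genes the other 3 groups were high, with means between 207 and 299 CPM for FLNC and between 105 and 212 CPM for EPB41L3, so the 6CD2m libraries stood apart from all the rest. SERPINB5 (maspin), a serpin of epithelial cells, had no count in treated 6CD2m cells and 18.9, 18.3 and 17.5 CPM in treated 8CDm cells (at least 110-fold higher in 8CDm, adjusted p = 9.91e-08). CYB5A, an electron carrier of the endoplasmic reticulum, had no count against 5.18, 4.55 and 4.46 CPM (at least 28.6-fold, adjusted p = 6.3e-09). PLXDC2, a transmembrane protein with a plexin domain, had no count against 5.52, 4.5 and 6.34 CPM (at least 32.9-fold, adjusted p = 4.37e-08). GDNF, a neurotrophic ligand of the RET receptor, had 1 count in all against 4.9, 4.55 and 4.83 CPM, a ratio of 260 (46.2 to 10300, adjusted p = 1.96e-08). These 4 genes were read in 6CD1m and in WT cells too, with means of 6.48, 5.41 and 6.13 CPM for GDNF.

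Other genes were well above every other group in treated 8CDm cells or near the floor in treated 6CD2m cells. LPAR3, a receptor for lysophosphatidic acid, stood at 0.118, 0.253 and 0.222 CPM in treated 6CD2m cells and 32.5, 33.3 and 30.6 CPM in treated 8CDm cells (log2FC of -7.27 ± 0.23, adjusted p = 7.55e-12), while the other groups had means between 7.45 and 12 CPM. MDK (midkine), a heparin-binding growth factor, stood at 0.651, 1.27 and 1.22 CPM in treated 6CD2m cells and 33.4, 40.3 and 38.6 CPM in treated 8CDm cells (log2FC of -5.14 ± 0.20, adjusted p = 7.07e-11), against means of 5.05, 11.3 and 14.3 CPM elsewhere. Every treated 8CDm library lay above every treated 6CD2m library for both. SPATA18, a p53 target in mitochondrial quality control, was at 0.71, 0.304 and 0.445 CPM against 18.6, 19.3 and 19.2 CPM (log2FC -5.29 ± 0.34, adjusted p = 2.04e-08). GABRA2, a subunit of the GABA-A receptor, was at 0.0592, 0.152 and 0.0556 CPM against 7.35, 5.8 and 8.91 CPM (adjusted p = 1.83e-08), and ULK2, a kinase that starts autophagy, differed by -4.74 ± 0.18 (adjusted p = 8.04e-11). FREM2, a basement membrane protein, was at 3 counts in all in treated 6CD2m cells and at a ratio of 38.3 (12.8 to 189) in favour of 8CDm (adjusted p = 2.02e-06).

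**Figure D2:**
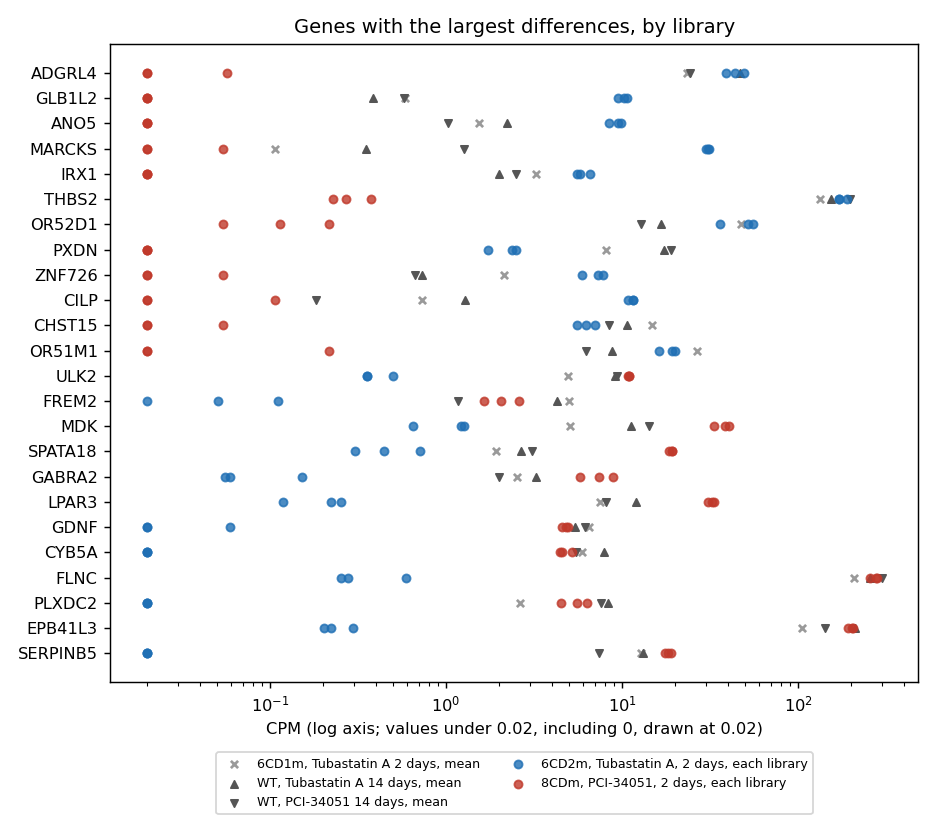
CPM on a log axis of the 24 protein-coding genes with the largest differences, 12 in each direction, with values under 0.02 CPM, zeros included, drawn at 0.02. Blue and red points are the single libraries of treated 6CD2m and treated 8CDm cells, and grey and dark marks are the means of 6CD1m and of WT cells, which lie near the blue points for some genes (THBS2) and near the red ones for others (FLNC, EPB41L3).

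The most abundant genes with a difference of at least 1 on the log2 scale included FN1 and THBS1 on the 8CDm side and IGF2R on the 6CD2m side. FN1 (fibronectin), the main adhesive glycoprotein of fibroblast matrix, stood at 393, 486 and 396 CPM in treated 6CD2m cells and 2950, 3040 and 3080 CPM in treated 8CDm cells (log2FC of -2.83 ± 0.23, adjusted p = 2.11e-07). THBS1 (thrombospondin 1), which binds matrix and activates latent TGF-β, stood at 184, 222 and 194 CPM in treated 6CD2m cells and 1360, 1470 and 1480 CPM in treated 8CDm cells (log2FC of -2.84 ± 0.19, adjusted p = 3.09e-08). The 6CD2m libraries lay below all 8CDm libraries in both genes, and the means in 6CD1m and WT cells lay in between (for FN1 1210, 1210 and 1410 CPM). MAP4K4, a kinase of the JNK pathway, stood at 427, 450 and 465 CPM in treated 6CD2m cells and 1290, 1310 and 1340 CPM in treated 8CDm cells (log2FC -1.56 ± 0.09, adjusted p = 7.04e-09). PTPN14, a tyrosine phosphatase that restrains YAP, was at 605, 631 and 609 against 1400, 1410 and 1400 CPM (log2FC -1.19 ± 0.11, adjusted p = 1.08e-06), and EGFR, the receptor of epidermal growth factor, at 168, 189 and 181 against 344, 372 and 370 CPM (log2FC -1.01 ± 0.13, adjusted p = 2.54e-05). STC1, a secreted glycoprotein hormone, NEDD4L, a ubiquitin ligase, MYO10, the motor of filopodia, and ABL2, a tyrosine kinase of the cytoskeleton, were also higher in 8CDm, with log2FC values of -1.35 ± 0.16, -1.38 ± 0.12, -1.11 ± 0.08 and -1.12 ± 0.09 in that order.

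On the 6CD2m side, IGF2R, the receptor that sorts mannose 6-phosphate tagged enzymes to lysosomes and clears IGF2, stood at 747, 876 and 813 CPM in treated 6CD2m cells and 343, 363 and 375 CPM in treated 8CDm cells (log2FC 1.17 ± 0.14, adjusted p = 1.37e-05). PAPPA, a protease that frees insulin-like growth factors from their binding proteins, stood at 331, 376 and 369 CPM in treated 6CD2m cells and 173, 173 and 180 CPM in treated 8CDm cells (log2FC 1.03 ± 0.12, adjusted p = 9.8e-06). PHLDB2, which anchors microtubules at the cell cortex, stood at 455, 456 and 474 CPM in treated 6CD2m cells and 223, 207 and 226 CPM in treated 8CDm cells (log2FC 1.08 ± 0.09, adjusted p = 4.24e-07). CSF1, the growth factor of macrophages, was at 221 ± 6.95 against 76.7 ± 4.26 CPM (SD, n = 3 each), a log2FC of 1.53 ± 0.10 with adjusted p = 2.06e-08, and no library of 1 group reached the range of the other in any of these 4 genes. SYNJ2, a lipid phosphatase of endocytosis (1.19 ± 0.07), PTPRS, a receptor phosphatase that binds proteoglycans (1.14 ± 0.08), and KMT2C, a histone H3 lysine 4 methyltransferase (1.01 ± 0.09), were higher in 6CD2m as well. A gene model named Metazoa_SRP on chromosome 14, of the signal recognition particle RNA family, stood at 660, 530 and 478 CPM in treated 6CD2m cells and 20.2, 21.2 and 21.5 CPM in treated 8CDm cells (log2FC 4.73 ± 0.19, adjusted p = 1.14e-10). Its family has many near-identical copies, so the reads of this model are uncertain in origin. TCP1, a subunit of the cytosolic chaperonin, passed with all libraries (1.29 ± 0.22, adjusted p = 0.000346) and missed the threshold without each of the 6 libraries (highest adjusted p 0.00377), and LAMA4 missed it without 8CDm replicate 1 (adjusted p 0.00138).

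The matrix genes did not move as 1 group. Among 29 matricellular and fibre glycoproteins tested, 5 were higher in 6CD2m and 6 higher in 8CDm (37.9% called, against 12.3% of protein-coding genes). Their median was 0.31, against -0.01 over all genes tested. Beside FN1 and THBS1, the elastin-associated glycoproteins EMILIN1 (-3.04 ± 0.40) and EMILIN2 (-3.03 ± 0.26) were higher in 8CDm, while THBS2 and MATN2, a matrilin (2.36 ± 0.27), were higher in 6CD2m. Of 26 collagens 4 were higher in 6CD2m and 2 in 8CDm (23.1% called, against 12.3% of protein-coding genes). The collagen VI chains split, with COL6A3 at 2500, 2880 and 2610 CPM in treated 6CD2m cells and 4690, 4910 and 5150 CPM in treated 8CDm cells (log2FC -0.88 ± 0.10, adjusted p = 8.07e-06) and COL6A1 at 246, 271 and 253 CPM in treated 6CD2m cells and 129, 140 and 150 CPM in treated 8CDm cells (log2FC 0.88 ± 0.11, adjusted p = 2.21e-05). COL6A3 was thus higher in 8CDm and COL6A1 higher in 6CD2m, without overlap of the groups in either. The cartilage collagen COL10A1 was higher in 6CD2m (1.77 ± 0.22) and the transmembrane collagen COL13A1 in 8CDm (-1.09 ± 0.16). Laminins and nidogens, which build basement membranes, were called in 5 of 14 cases (35.7%, against 12.3% of protein-coding genes), all higher in 6CD2m (median 0.41). LAMC3, a laminin γ chain, stood at 9.77, 8.87 and 9.07 CPM in treated 6CD2m cells and 0.456, 0.867 and 0.966 CPM in treated 8CDm cells (log2FC 3.58 ± 0.31, adjusted p = 5.17e-07), while the means of the other groups lay between 0.178 and 0.285 CPM. Without 1 library the counts higher in 6CD2m were 3 for the glycoproteins and 2 for the collagens whichever library was left out, and for the laminins 2, 1 and 3 without 6CD2m replicate 2, 8CDm replicate 1 and 8CDm replicate 2.

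The cell surface proteoglycans CSPG4 and GPC6 were higher in treated 8CDm cells. CSPG4 (NG2), a chondroitin sulfate proteoglycan of pericytes and sarcomas, stood at 19.4, 21 and 17.5 CPM in treated 6CD2m cells and 110, 122 and 127 CPM in treated 8CDm cells (log2FC -2.63 ± 0.12, adjusted p = 3.94e-10). GPC6, a heparan sulfate glypican, stood at 28.1, 33.1 and 27.7 CPM in treated 6CD2m cells and 136, 128 and 132 CPM in treated 8CDm cells (log2FC -2.15 ± 0.15, adjusted p = 5.08e-08). The syndecan SDC3 went the other way (0.95 ± 0.10). Over 21 proteoglycans tested, 2 were higher in 6CD2m and 5 in 8CDm (33.3% called, against 12.3% of protein-coding genes, median 0.05). The count of 5 became 3 without 6CD2m replicate 1 or 3 or 8CDm replicate 2 or 3. The count of 2 became 1 without 8CDm replicate 3.

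Among 25 matrix metalloproteinases, ADAMTS proteases and their TIMP inhibitors tested, 5 were higher in 6CD2m and 1 in 8CDm, against 6.78% and 5.49% of protein-coding genes, and 14 of the 25 values were positive (median 0.28). PLAT, tissue plasminogen activator, of the serpin and plasminogen list, stood at 178, 189 and 161 CPM in treated 6CD2m cells and 24.5, 26 and 26.4 CPM in treated 8CDm cells (log2FC 2.78 ± 0.15, adjusted p = 3.47e-09). The other groups had means of 147, 181 and 177 CPM, so that 8CDm was the low group. MMP1, interstitial collagenase, stood at 15.7, 24.5 and 22 CPM in treated 6CD2m cells and 6.15, 6.66 and 7.89 CPM in treated 8CDm cells (log2FC 1.59 ± 0.22, adjusted p = 6.28e-05). ADAMTS2, which trims procollagen, was at 4.14, 2.89 and 2.84 CPM against 3 counts in all (ratio 59.4, interval 20 to 291, adjusted p = 2.85e-08), and ADAMTS9 differed by 1.85 ± 0.19. ADAMTS12 was the exception, higher in 8CDm (-2.41 ± 0.35). In the list of serpins and plasminogen activation, 4 of 18 were higher in each group (44.4% called, against 12.3% of protein-coding genes). SERPINB7, a further serpin of chromosome 18 beside SERPINB5, was at 10.4, 10.5 and 11.9 against 42.5, 59.2 and 53.3 CPM (log2FC -2.24 ± 0.28, adjusted p = 2.41e-05). PLAU, urokinase, stood at 1140, 1360 and 1200 CPM in treated 6CD2m cells and 607, 625 and 652 CPM in treated 8CDm cells (log2FC 0.97 ± 0.17, adjusted p = 0.000508), a call that was lost without each of the 6 libraries (highest adjusted p 0.00448). Without 1 library the serpin counts lay between 1 and 2 on the 6CD2m side, and the count on the 8CDm side was 2 without 6CD2m replicate 1.

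Adhesion receptors were called in both directions, and different members stood out on each side. ITGB2, the β chain of leukocyte integrins, stood at 22.6, 25 and 21.7 CPM in treated 6CD2m cells and 2.96, 2.49 and 1.77 CPM in treated 8CDm cells (log2FC 3.26 ± 0.24, adjusted p = 6.75e-08), and its partner ITGAX at 17, 16.5 and 16 CPM in treated 6CD2m cells and 6.49, 6.23 and 5.69 CPM in treated 8CDm cells (log2FC 1.43 ± 0.13, adjusted p = 1.18e-06). ITGA10, a collagen-binding α chain of cartilage, stood at 29.8, 29.7 and 26.5 CPM in treated 6CD2m cells and 152, 152 and 152 CPM in treated 8CDm cells (log2FC -2.41 ± 0.12, adjusted p = 1.86e-09), and ITGB8, which activates latent TGF-β, differed by -1.92 ± 0.22. Of 22 integrins tested, 4 were higher in 6CD2m and 3 in 8CDm (31.8% called, against 12.3% of protein-coding genes, median 0.26), and the 3 became 2 whichever library was left out. Of 69 cadherins and protocadherins, 6 were higher in each group (17.4% called, against 12.3% of protein-coding genes, median -0.26). Without 1 library 4 of them were higher in 6CD2m in every case and 5 to 7 in 8CDm. PCDHGC3, a member of the γ protocadherin cluster, stood at 51.9, 59.3 and 51.5 CPM in treated 6CD2m cells and 258, 263 and 299 CPM in treated 8CDm cells (log2FC -2.33 ± 0.12, adjusted p = 2.14e-09). Its 3′ exons are shared by the cluster, so reads in them are uncertain. The desmosomal cadherins DSG2 (-2.42 ± 0.23) and DSC2 (-3.91 ± 0.52) were both higher in 8CDm. Tetraspanins, scaffolds of membrane domains, were called in 3 of 22 cases (13.6%, near the 12.3% of protein-coding genes), all higher in 6CD2m (median 0.32). TSPAN18 stood at 32.6, 33.3 and 29.6 CPM in treated 6CD2m cells and 0.399, 0.65 and 0.376 CPM in treated 8CDm cells (log2FC 6.04 ± 0.23, adjusted p = 6.39e-11), TSPAN15 had 3 counts in all on the 8CDm side (ratio 98.4, interval 33.3 to 480), and CD82 differed by 0.99 ± 0.12.

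Guidance molecules of the semaphorin and plexin families were called in both directions. Of 29 tested, 7 were higher in 6CD2m and 4 in 8CDm (37.9% called, against 12.3% of protein-coding genes, median 0.27). The receptor PLXNA4 stood at 16, 16.9 and 18.9 CPM in treated 6CD2m cells and 198, 205 and 214 CPM in treated 8CDm cells (log2FC -3.57 ± 0.10, adjusted p = 1.62e-12), with still higher means in the other groups (316, 402 and 518 CPM). PLXNA2, another plexin, was higher in 8CDm (-1.26 ± 0.09), as was the transmembrane ligand SEMA5A (-2.71 ± 0.20). The secreted class 3 semaphorins SEMA3B (1.96 ± 0.19) and SEMA3F (1.19 ± 0.09) were higher in 6CD2m. Without 6CD2m replicate 2, 8CDm replicate 1 or 8CDm replicate 2, the 7 became 4.

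Several genes induced by growth factor signalling were higher in treated 8CDm cells. In the list of fibroblast growth factors, their receptors and the feedback genes of the pathway, 5 of 25 were called (20%, against 12.3% of protein-coding genes). All 5 were higher in 8CDm (median -0.42), and 5 were called whichever library was left out. DUSP4, a nuclear phosphatase of ERK, stood at 131, 139 and 126 CPM in treated 6CD2m cells and 296, 314 and 312 CPM in treated 8CDm cells (log2FC -1.22 ± 0.09, adjusted p = 1.16e-07). DUSP5, another ERK phosphatase, stood at 68.2, 75.3 and 72.5 CPM in treated 6CD2m cells and 186, 199 and 203 CPM in treated 8CDm cells (log2FC -1.45 ± 0.12, adjusted p = 2.16e-07). The receptor tyrosine kinase antagonist SPRY2 (-1.19 ± 0.12) and the ETS factor ETV4 (-0.94 ± 0.10) also were higher in 8CDm. Among 29 AP-1 and immediate early genes, 8 were higher in 8CDm and 1 in 6CD2m (31% called, against 12.3% of protein-coding genes, median -0.19). The orphan nuclear receptors, fast responders to many stimuli, led them, with NR4A1 at 3.32, 2.74 and 2.67 CPM in treated 6CD2m cells and 16.3, 16.5 and 16.4 CPM in treated 8CDm cells (log2FC -2.50 ± 0.21, adjusted p = 3.83e-07) and NR4A2 at 2.66, 3.04 and 2.61 CPM in treated 6CD2m cells and 22, 23.5 and 22.7 CPM in treated 8CDm cells (log2FC -3.03 ± 0.18, adjusted p = 7.08e-09). In both, the 6CD1m and WT means stayed below 10 CPM, so the 8CDm libraries were the high ones. NR4A3 differed by -3.18 ± 0.48 (adjusted p = 0.000124) and missed the threshold without 6CD2m replicate 1 or 3 (highest adjusted p 0.00145). The phosphatase DUSP2 had 1 count in all in treated 6CD2m cells (ratio 53, interval 9.1 to 2130, adjusted p = 5.59e-05). Without 1 library 6 to 8 members of the list were higher in 8CDm. The member higher in 6CD2m was KLF4, a factor of epithelial differentiation and pluripotency, at 27.8, 27.2 and 28.3 CPM in treated 6CD2m cells and 2.85, 3.52 and 4.51 CPM in treated 8CDm cells (log2FC 2.93 ± 0.19, adjusted p = 2.66e-08), and without 6CD2m replicate 2 a second member was called on that side.

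Notch pathway genes, which carry signals between touching cells, were mostly higher in treated 8CDm cells when called. Of 27 tested, 7 were higher in 8CDm and 2 in 6CD2m (33.3% called, against 12.3% of protein-coding genes, median -0.22). The 7 became 6 whichever library was left out. Among the ligands, JAG1 stood at 96.4, 110 and 108 CPM in treated 6CD2m cells and 245, 250 and 278 CPM in treated 8CDm cells (log2FC -1.30 ± 0.10, adjusted p = 1.39e-07), and DLL1, at low level, stood at 0.178, 0.101 and 0.0556 CPM in treated 6CD2m cells and 2.85, 2.33 and 2.31 CPM in treated 8CDm cells (adjusted p = 1.56e-06, with at most 3 counts in each 6CD2m library). Of the receptors, NOTCH3 was higher in 8CDm (-1.70 ± 0.15) and NOTCH2 in 6CD2m, at 1780, 1950 and 1880 CPM in treated 6CD2m cells and 903, 951 and 981 CPM in treated 8CDm cells (log2FC 0.99 ± 0.13, adjusted p = 4.16e-05). The target HES4 was higher in 8CDm (-1.85 ± 0.23). NRARP, a feedback inhibitor, was higher in 6CD2m (2.11 ± 0.32) and missed the threshold without 8CDm replicate 1 or 2 (highest adjusted p 0.00121), which leaves 1 gene on that side.

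TGF-β and BMP genes were called on both sides. Of 50 tested, 5 were higher in 6CD2m and 8 in 8CDm (26% called, against 12.3% of protein-coding genes, median -0.22). Among the ligands, INHBE, an inhibin β chain, stood at 130, 150 and 131 CPM in treated 6CD2m cells and 32.2, 35.9 and 34.5 CPM in treated 8CDm cells (log2FC 2.00 ± 0.18, adjusted p = 6.91e-07) and TGFB2 differed by 1.42 ± 0.19, both higher in 6CD2m, while BMP2 was higher in 8CDm (-1.95 ± 0.21). SMAD4, the common mediator of both branches, stood at 68.6, 76.8 and 74.3 CPM in treated 6CD2m cells and 161, 162 and 165 CPM in treated 8CDm cells (log2FC -1.15 ± 0.16, adjusted p = 6.25e-05). Among secreted antagonists, FST (follistatin) was higher in 8CDm (-1.26 ± 0.16). The count on the 6CD2m side was 3 with any library left out except 6CD2m replicate 3, and that on the 8CDm side 5, 5, 4 and 4 without 6CD2m replicate 2 and 8CDm replicates 1, 2 and 3.

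Cytokines showed single genes of large difference rather than a common direction. Of 47 chemokines, interleukins and receptors tested, 6 were higher in each group (25.5% called, against 12.3% of protein-coding genes, median 0.21). IL6, a cytokine of the acute phase, stood at 4.68, 5.37 and 4.95 CPM in treated 6CD2m cells and 0.513, 0.108 and 0.322 CPM in treated 8CDm cells (log2FC 3.97 ± 0.46, adjusted p = 1.16e-05). IL1B, a cytokine of innate immunity that drives fever and inflammation, stood at 9.71, 11.3 and 12.1 CPM in treated 6CD2m cells and 62.4, 64.1 and 62.8 CPM in treated 8CDm cells (log2FC -2.51 ± 0.17, adjusted p = 2.85e-08). For IL1B both groups lay far below the WT means (276 and 294 CPM). IL24, of the IL-10 family, was higher in 8CDm (-2.06 ± 0.18), and CXCL16, a membrane-bound chemokine, in 6CD2m (1.66 ± 0.23). The 6 genes higher in 6CD2m became 3 without 6CD2m replicate 2 or 3 or 8CDm replicate 1 or 2. In the TNF superfamily, TNFRSF8 (3.27 ± 0.27), TNFRSF1B (2.55 ± 0.24) and the ligand TNFSF15 (4.87 ± 0.45) were higher in 6CD2m and TNFRSF19 in 8CDm (-4.11 ± 0.40), of 28 tested. The share called there was 14.3%, near the 12.3% of protein-coding genes.

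**Figure D3:**
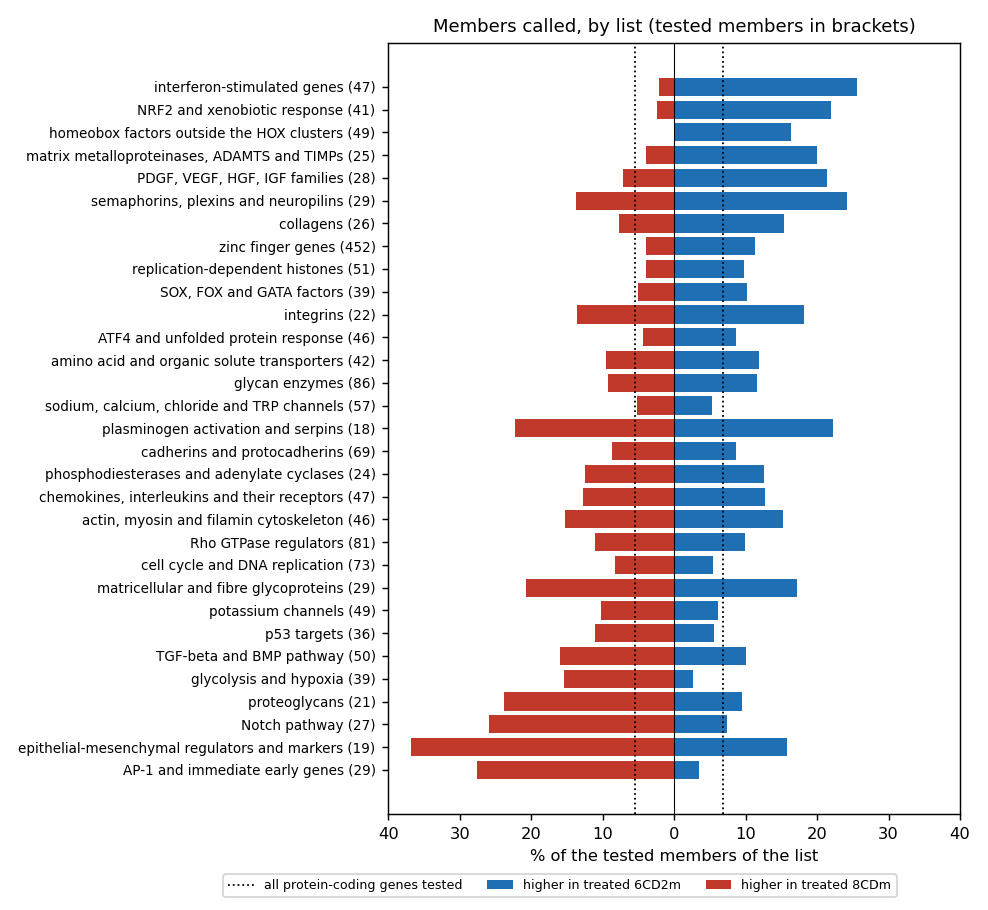
Bars give the percentage of each list's tested members called higher in treated 6CD2m cells (blue, to the right) or in treated 8CDm cells (red, to the left), for those of the 60 lists with at least 6 called members, with the number tested in brackets. A list of olfactory receptors and globins, added after values were seen, is not drawn. Dotted lines mark 6.78% and 5.49%, the shares over all protein-coding genes tested, and lists are ordered by the difference of their 2 shares, with the interferon-stimulated genes at the top.

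Interferon-stimulated genes were higher in treated 6CD2m cells in 12 of 47 cases tested and higher in treated 8CDm cells in 1 (25.5% and 2.13%, against 6.78% and 5.49% of protein-coding genes). The list's median was 0.47, and 34 of 47 values were positive. These genes are switched on by interferon signalling through a short promoter element in which GAAA is repeated after 2 bases of any kind. IFI27, a small membrane protein of this response, stood at 11.8, 11.6 and 10.3 CPM in treated 6CD2m cells and 1.31, 1.25 and 1.4 CPM in treated 8CDm cells (log2FC 3.09 ± 0.26, adjusted p = 2.99e-07). MX1, a GTPase that blocks influenza viruses, stood at 13.7, 13.5 and 11.8 CPM in treated 6CD2m cells and 2.11, 3.03 and 3.17 CPM in treated 8CDm cells (log2FC 2.23 ± 0.19, adjusted p = 3.82e-07). The groups did not overlap in either, and in 6CD1m and WT cells the means lay between the 2 groups (4.9, 2.33 and 2.24 CPM for IFI27). IFI6 stood at 2.01, 2.18 and 1.78 CPM in treated 6CD2m cells and 0.342, 0.488 and 0.43 CPM in treated 8CDm cells (log2FC 2.22 ± 0.30, adjusted p = 4.53e-05). HERC5, the ligase that attaches ISG15 to proteins, stood at 3.37, 4 and 2.78 CPM in treated 6CD2m cells and 0.114, 0.704 and 0.483 CPM in treated 8CDm cells (log2FC 2.93 ± 0.45, adjusted p = 0.000141) and missed the threshold without 6CD2m replicate 2 or 8CDm replicate 3 (highest adjusted p 0.00118). ISG20, an exonuclease of RNA, was the exception at 5.09, 3.8 and 4.17 CPM in treated 6CD2m cells and 20.7, 21.6 and 18.4 CPM in treated 8CDm cells (log2FC -2.22 ± 0.16, adjusted p = 8.39e-08). Leaving out 1 library gave 9 to 12 genes higher in 6CD2m and 1 higher in 8CDm. IFITM1, IFITM2 and IFITM3 are close copies whose reads are uncertain.

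This motif (GAAA, any 2 bases, GAAA) was searched on both strands in the 250 bases before the RefSeq gene start (GRCh38.p14), with overlapping matches counted separately. It was present in 3.02% of 35116 promoters and in 2.39% of the 10454 tested protein-coding genes with a promoter in the table. Among 35 interferon-stimulated genes with a promoter, 21 held it, 8 of the 10 higher in 6CD2m and 12 of the 24 not called. MX1 had no match in this window. The windows below surround the matches in 3 named genes higher in 6CD2m and in ISG20, the gene higher in 8CDm, to show that both directions carry the repeat. Capitals mark the matches, as the motif or its reverse complement, and each sequence runs 5′ to 3′ on the gene's strand.
IFI27, chr14:94110608-94110670, plus strand: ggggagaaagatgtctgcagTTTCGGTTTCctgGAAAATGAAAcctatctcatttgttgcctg
IFI6, chr1:27672256-27672368, minus strand: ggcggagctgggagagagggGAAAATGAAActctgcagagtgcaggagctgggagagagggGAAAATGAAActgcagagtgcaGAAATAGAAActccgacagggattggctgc
HERC5, chr4:88456974-88457074, plus strand: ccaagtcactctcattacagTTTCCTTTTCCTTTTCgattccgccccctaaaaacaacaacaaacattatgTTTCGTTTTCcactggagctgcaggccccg
ISG20, chr15:88638927-88638976, plus strand: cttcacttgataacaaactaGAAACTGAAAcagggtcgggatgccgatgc
IFI27 carries the repeat in both orientations within a few bases, IFI6 in the forward orientation in 3 places, HERC5 in the reverse orientation and ISG20 in a single copy.

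In the related list of class I antigen presentation, 4 of 21 genes were called (19%, against 12.3% of protein-coding genes), all higher in 6CD2m (median 0.23). CD274 (PD-L1), the ligand of the inhibitory T cell receptor PD-1, stood at 126, 146 and 139 CPM in treated 6CD2m cells and 56, 54.9 and 55.8 CPM in treated 8CDm cells (log2FC 1.30 ± 0.12, adjusted p = 9.21e-07). HLA-B and HLA-F share sequence with other class I genes and missed the threshold when 1 library was left out (highest adjusted p 0.00682 and 0.00495), and the list's count was 1 with any library left out except 6CD2m replicate 1, where it was 2.

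**Figure D4:**
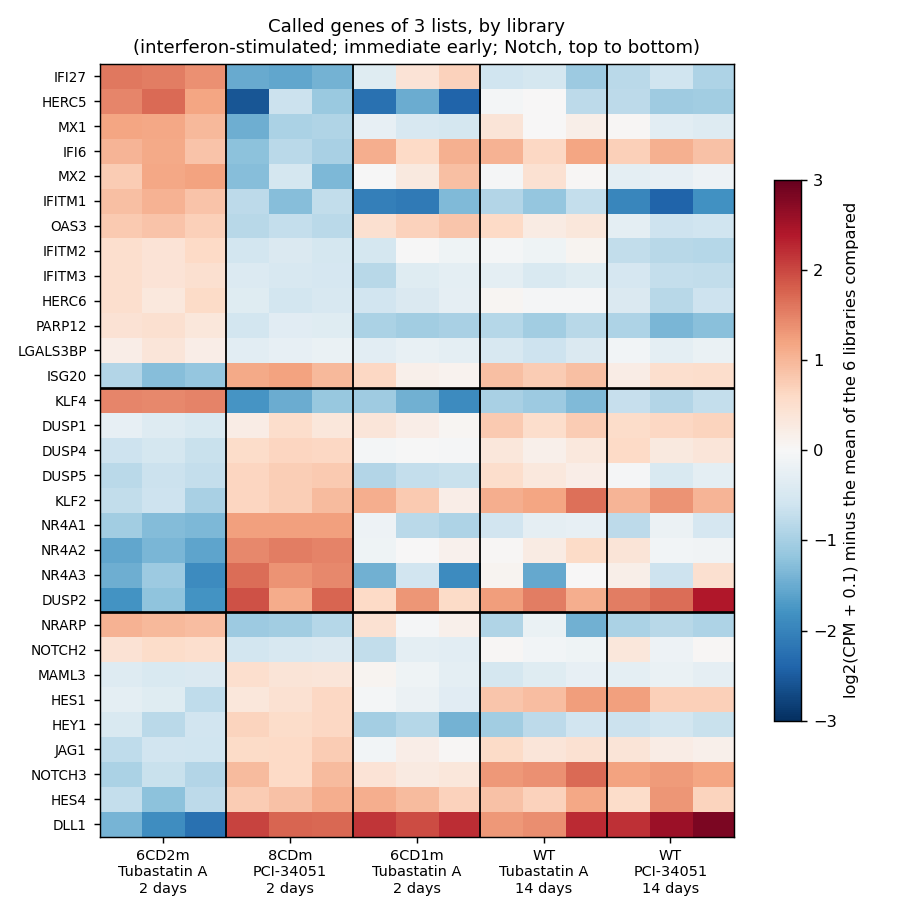
Rows are the called genes of the interferon-stimulated, immediate early and Notch lists and columns the 15 libraries by group, with colour for log2(CPM + 0.1) minus the mean of the 6 libraries compared, on a scale from -3 (blue) to 3 (red). The upper rows are red in treated 6CD2m and blue in treated 8CDm cells except for ISG20, while most rows of the lower blocks show the opposite, apart from KLF4, NRARP and NOTCH2.

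Homeobox factors outside the HOX clusters, listed together with T-box factors, were called in 8 of 49 cases (16.3%, against 12.3% of protein-coding genes). All 8 were higher in treated 6CD2m cells (list median 0.25). Beside IRX1, MSX2, a factor of bone and limb, was at 2.78, 2.43 and 2.39 CPM against 3 counts in all (ratio 46, interval 15.4 to 226, adjusted p = 2.26e-05). ISL1, a LIM homeobox factor of motor neurons and heart, was at 1.66, 2.13 and 1.5 CPM against 1 count in all (ratio 97.1, interval 17 to 3870), and PRRX1, a factor of limb mesenchyme, at 1.07, 0.709 and 0.779 CPM against none. Both calls were lost without each of the 6 libraries, and the list's count was 5 with any library left out except 6CD2m replicate 3. In the HOX clusters HOXB13 was higher in 6CD2m (5.02 ± 0.47) and HOXD10 (-1.64 ± 0.15) and HOXD11 (-1.89 ± 0.26) in 8CDm, of 31 tested. The share called there was 9.68%, below the 12.3% of protein-coding genes. In the list of epithelial-mesenchymal regulators, 3 of 19 were higher in 6CD2m and 7 in 8CDm (52.6% called, against 12.3% of protein-coding genes, median -0.20). SNAI2, a repressor of epithelial genes, stood at 9.59, 10.5 and 9.9 CPM in treated 6CD2m cells and 19.1, 20.6 and 17.8 CPM in treated 8CDm cells (log2FC -0.94 ± 0.10, adjusted p = 6.67e-06). The tight junction gene OCLN was higher in 6CD2m at 17.8, 18.9 and 16.2 CPM in treated 6CD2m cells and 8.26, 6.01 and 5.96 CPM in treated 8CDm cells (log2FC 1.39 ± 0.16, adjusted p = 1.03e-05). GRHL2, an epithelial marker at low level, went the other way (log2FC -2.20, adjusted p = 0.000912), a call lost without any 1 of 5 libraries. DSG2, DSC2 and SERPINB5, named above, were higher in 8CDm too, so epithelial genes did not share a direction. ZEB1, which acts like SNAI2, differed by -0.94 ± 0.18 and was lost without each of the 6 libraries (highest adjusted p 0.00898). Without 1 library 3 or 4 genes were higher in 8CDm, and 1 higher in 6CD2m without 6CD2m replicate 2 or any 8CDm replicate.

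Zinc finger genes were called in 69 of 452 cases (15.3%, against 12.3% of protein-coding genes), 51 higher in 6CD2m and 18 in 8CDm (median 0.03). Many of them code for DNA-binding proteins with a KRAB domain that recruit silencing complexes, and a large share lies in clusters on chromosome 19. There, 35 of 218 were higher in 6CD2m and 4 in 8CDm, 20 of the 35 with a log2 fold change of at least 3 and 8 of them at the floor in treated 8CDm cells. Among all protein-coding genes tested on chromosome 19, 8.22% were higher in 6CD2m and 3.21% in 8CDm. ZNF726 was at 7.81, 7.3 and 5.9 CPM against 1 count in all (ratio 382, interval 68.2 to 15100, adjusted p = 1.57e-07). ZNF880 at 3.14, 2.48 and 4 CPM and ZNF347 at 1.95, 3.09 and 4.23 CPM had no count in treated 8CDm cells (at least 19.5-fold and 18.7-fold higher), and their means in the other groups did not pass 0.0425 CPM. Both therefore passed the count filter only through the 6CD2m libraries, which fixed their direction in advance. How many of the 35 did so was not counted. On chromosome 18, 8 of 9 zinc finger genes were higher in 8CDm and none in 6CD2m, among them ZNF521, at 23.3, 23.3 and 25.8 CPM in treated 6CD2m cells and 75.9, 67.2 and 71.9 CPM in treated 8CDm cells (log2FC -1.57 ± 0.10, adjusted p = 1.43e-08). Members of a cluster resemble one another, so some reads may be placed on the wrong copy. Without 1 library 27 to 31 of the list were higher in 6CD2m.

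A run of neighbouring genes on chromosome 11 was read in treated 6CD2m cells and close to absent in treated 8CDm cells. It was chosen after its values were seen, and it spans chr11:5253190-5489749 (GRCh38), next to the β-globin genes. All 18 genes tested in it were called higher in 6CD2m. Of the 18, 14 are olfactory receptor genes or pseudogenes, which code for odorant receptors of the nose, and 7 of the 18 are pseudogenes. Group means lay between 1.4 and 76.9 CPM in treated 6CD2m cells and between 0.0179 and 0.5 CPM in treated 8CDm cells. OR52D1 stood at 51.8, 36 and 55.8 CPM in treated 6CD2m cells and 0.114, 0.0542 and 0.215 CPM in treated 8CDm cells (log2FC 8.46 ± 0.27, adjusted p = 6.9e-12), and HBE1, embryonic ε-globin, at 43.8, 53.4 and 45.4 CPM in treated 6CD2m cells and 0.228, 0.325 and 0.268 CPM in treated 8CDm cells (log2FC 7.40 ± 0.29, adjusted p = 8.58e-11). For OR52D1 the means elsewhere were 47.2 CPM in 6CD1m and 16.6 and 12.8 CPM in WT cells, so treated 8CDm cells were the low group. The gene models HBG2, HBE1 and AC104389.28 run across much of the block, on the minus strand, and 11 of the 18 lie on that strand and 7 on the other. Reads of a long transcript and of a receptor gene inside it cannot be told apart here. Of the tested neighbours on either side, TRIM21, TRIM68, TRIM6, TRIM34 and the readthrough model TRIM6-TRIM34 were not called, and neither was the olfactory pseudogene OR52K3P, at a log2FC of 2.26 (adjusted p = 0.0154).

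Position on the chromosomes separated the 2 groups over wide stretches. Boundaries were set after 10 Mb windows had been seen, so the following is a description. On chromosome 6 from 70 Mb to the end, the median over 310 protein-coding genes tested was 0.99 (a ratio of 1.99), 95.8% of values were positive, and 148 were higher in 6CD2m and 4 in 8CDm. From 0 to 60 Mb of the same chromosome the median over 406 genes was 0.07. The last part of chromosome 7, from 140 Mb, had a median of 1.12 over 90 genes, with 44 higher in 6CD2m and 1 in 8CDm. Chromosome 18 had a median of -0.73 over 191 genes (a ratio of 0.603), with 90.1% of values negative, 83 higher in 8CDm and 3 in 6CD2m. Chromosome 20 up to 30 Mb had a median of -0.50 over 124 genes, with 32 higher in 8CDm and 1 in 6CD2m. Over all protein-coding genes tested, 6.78% were higher in 6CD2m and 5.49% in 8CDm. The 4 segments together held 21.5% of the protein-coding genes higher in 6CD2m and 16.3% of those higher in 8CDm, although 12700 of the 13415 tested lay outside them. Outside them, 714 of 12700 genes were higher in 6CD2m and 617 in 8CDm (median -0.01). That median joins stretches of smaller shift in both directions. On chromosome 2 from 100 Mb the median over 499 genes was -0.33, with 68 higher in 8CDm and 12 in 6CD2m. Chromosome 7 up to 60 Mb had a median of -0.32 over 212 genes (30 higher in 8CDm, 12 in 6CD2m). From 60 to 140 Mb its median was 0.30 over 349 genes (33 higher in 6CD2m, 5 in 8CDm). Several genes named above lie in the segments, and those given here are examples, not a full list. IGF2R, THBS2, MARCKS, LAMA4, SYNJ2 and TCP1 are on chromosome 6q, INSIG1, a regulator of sterol synthesis (1.71 ± 0.14), and KMT2C are near the end of chromosome 7, and SMAD4, NEDD4L, DSG2, DSC2, EMILIN2, EPB41L3, CYB5A, SERPINB5 and SERPINB7 are on chromosome 18. DNA copy number was not analysed here, so its part in these values was not tested.

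**Figure D5:**
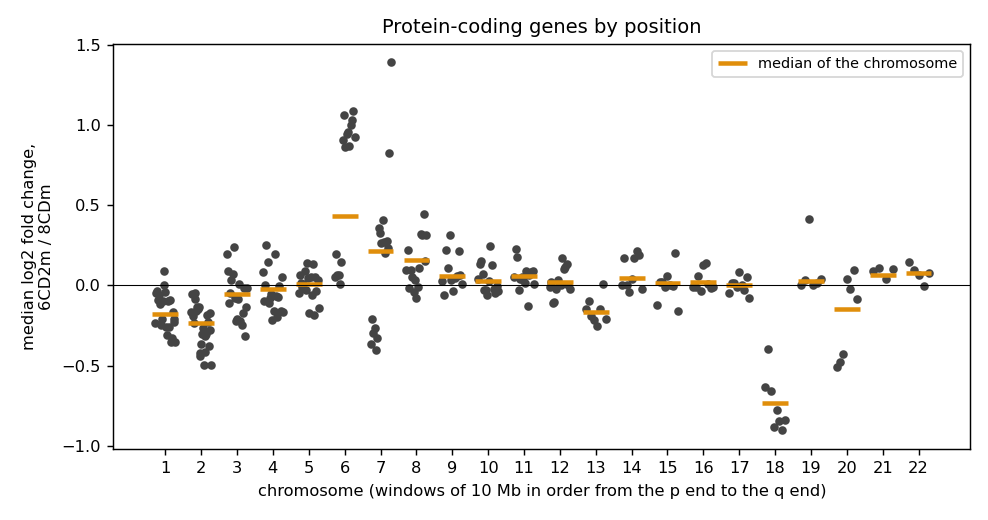
Each dark point is the median log2 fold change, 6CD2m over 8CDm, of the protein-coding genes tested in a 10 Mb window, in order along each autosome, and the orange bar is the median of the chromosome. Windows of the later part of chromosome 6 and the end of chromosome 7 lie near 1, and those of chromosome 18 and the first part of chromosome 20 lie below 0.

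Genes of redox and xenobiotic metabolism were higher in treated 6CD2m cells in 9 of 41 cases and in treated 8CDm cells in 1, against 6.78% and 5.49% of protein-coding genes (median 0.26). MGST1, a membrane-bound glutathione transferase, stood at 56.5, 71.8 and 66.9 CPM in treated 6CD2m cells and 0.797, 1.19 and 0.913 CPM in treated 8CDm cells (log2FC 6.06 ± 0.29, adjusted p = 8.99e-10). ALDH1A3, which makes retinoic acid, stood at 18.6, 21 and 18.6 CPM in treated 6CD2m cells and 4.78, 4.28 and 4.72 CPM in treated 8CDm cells (log2FC 2.08 ± 0.18, adjusted p = 4.91e-07), and ME1, which supplies NADPH, differed by 1.75 ± 0.25. GSTM2 was higher in 8CDm (-2.56 ± 0.34), and its near-identical neighbours make its reads uncertain. The 9 became 5 with any library left out except 6CD2m replicate 3. In the list of glycolysis and hypoxia genes, 6 of 39 were higher in 8CDm and 1 in 6CD2m (17.9% called, against 12.3% of protein-coding genes, median -0.03). The 6 became 5 whichever library was left out. CA12, a carbonic anhydrase of the cell surface, stood at 1.54, 1.52 and 1.5 CPM in treated 6CD2m cells and 23.6, 22.6 and 24 CPM in treated 8CDm cells (log2FC -3.94 ± 0.18, adjusted p = 5.33e-10). CA9, a related enzyme (-1.24 ± 0.18), the neuronal enolase ENO2 (-0.84 ± 0.09) and NDRG1 (-0.81 ± 0.10) followed with smaller differences. The gene higher in 6CD2m, EGLN3, a prolyl hydroxylase that marks HIF for decay, stood at 1.12, 0.963 and 0.667 CPM in treated 6CD2m cells and 0.114, 0.108 and 0.0537 CPM in treated 8CDm cells and was lost without each of the 6 libraries. Among transporters, SLC43A3, a purine carrier, stood at 101, 105 and 103 CPM in treated 6CD2m cells and 2.62, 3.09 and 3.44 CPM in treated 8CDm cells (log2FC 5.08 ± 0.12, adjusted p = 1.24e-13). FADS2, a fatty acid desaturase (-1.42 ± 0.11), and the cholesterol exporter ABCA1 (-1.35 ± 0.12) were higher in 8CDm.

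Cytoskeletal genes were called equally often in each direction, 7 of 46 for actin, myosin and filamin genes (30.4% called, against 12.3% of protein-coding genes, median 0.10). Without 1 library 5 or 6 were called in each direction. MYH10, nonmuscle myosin IIB, stood at 15.6, 16.6 and 14.9 CPM in treated 6CD2m cells and 73.1, 77.1 and 75.9 CPM in treated 8CDm cells (log2FC -2.26 ± 0.08, adjusted p = 3.15e-11). TAGLN (transgelin), an actin-binding protein of smooth muscle, stood at 100, 117 and 110 CPM in treated 6CD2m cells and 37.5, 40.8 and 37.9 CPM in treated 8CDm cells (log2FC 1.49 ± 0.15, adjusted p = 1.81e-06). MYH10 was therefore higher in 8CDm and TAGLN higher in 6CD2m. Tubulin genes and tubulin modifiers, the list nearest to the known substrate of KDAC6, were called in 5 of 44 cases (11.4%, against 12.3% of protein-coding genes), 4 higher in 6CD2m (median 0.13). They included the neuronal microtubule protein MAP1A at 26.9, 29 and 32.4 CPM in treated 6CD2m cells and 4.67, 3.63 and 2.9 CPM in treated 8CDm cells (log2FC 2.98 ± 0.16, adjusted p = 3.08e-09) and the neuronal β-tubulin TUBB4A at 6.75, 4.86 and 7.9 CPM in treated 6CD2m cells and 0, 0.0542 and 0.161 CPM in treated 8CDm cells (adjusted p = 2.6e-07). The 1 gene higher in 8CDm, the carboxypeptidase AGBL5 (-0.55 ± 0.10), was lost without each of the 6 libraries. Of 47 heat shock proteins tested, 4 were higher in 6CD2m and 1 in 8CDm (10.6%, against 12.3% of protein-coding genes). HSPB8, a small chaperone of muscle, stood at 16.3, 17.6 and 17.3 CPM in treated 6CD2m cells and 1.14, 1.25 and 1.29 CPM in treated 8CDm cells (log2FC 3.79 ± 0.26, adjusted p = 3.14e-08). HSPA1A (0.86 ± 0.10) and HSPA1B (1.08 ± 0.13) were higher in 6CD2m too, as near-identical copies whose reads cannot be assigned with certainty.

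Cohesin genes and their regulators, the list nearest to the known substrate of KDAC8, held no call among 23 tested in edgeR's quasi-likelihood test (median -0.16), against 12.3% of protein-coding genes. At an unadjusted p under 0.05, 7 of them differed, DESeq2 called 1, and the fit of the 6 libraries alone called 5. Over all genes tested these counts were 6700 of 18708, 2952 of 18708 and 3982 of 17252. Of the autosomal KDAC and sirtuin genes tested, 3 of 15 were called (20%, against 12.3% of protein-coding genes). HDAC5, a class IIa KDAC, stood at 40, 40.2 and 36.6 CPM in treated 6CD2m cells and 88.4, 92.2 and 87 CPM in treated 8CDm cells (log2FC -1.20 ± 0.10, adjusted p = 2.15e-07), and HDAC9, of the same class, at 40.7, 44.5 and 52.7 CPM in treated 6CD2m cells and 93.7, 89.5 and 92 CPM in treated 8CDm cells (adjusted p = 1.14e-05). HDAC11, the class IV enzyme, stood at 6.28, 5.72 and 6.23 CPM in treated 6CD2m cells and 2.16, 2.98 and 2.36 CPM in treated 8CDm cells (log2FC 1.28 ± 0.22, adjusted p = 0.000424) and was lost without each of the 6 libraries (highest adjusted p 0.00347). HDAC1, HDAC2, HDAC3, HDAC4, HDAC7 and HDAC10 did not pass, with log2 fold changes of -0.31, 0.87, -0.15, -0.39, -0.27 and -0.24. HDAC2 lies on chromosome 6q, and its value is near the median of that segment.

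Housekeeping lists held no call in the fit over all 15 libraries, where 12.3% of protein-coding genes were called. Of all 18708 genes tested, 6700 had an unadjusted p under 0.05 and DESeq2 called 2952. The fit of the 6 libraries alone called 3982 of 17252. None of 78 cytosolic ribosomal protein genes was called, with a median of -0.23 and 6 positive values, while 26 had an unadjusted p under 0.05, DESeq2 called 8, and the fit of the 6 libraries alone called 2 higher in 6CD2m and 22 higher in 8CDm. None of 76 nuclear genes of the respiratory chain was called (median 0.01), with 17 at an unadjusted p under 0.05, 4 called by DESeq2 and, with the 6 libraries alone, 9 higher in 6CD2m and 3 in 8CDm. The 13 mitochondrial mRNAs were all tested, and none was called, none had an unadjusted p under 0.05, and neither DESeq2 nor the fit of the 6 libraries called any. They ranged from -0.09 ± 0.20 for MT-ATP8 to 0.32 ± 0.27 for MT-ND6. Mitochondrial genes took 2.55 ± 0.365% of the counts in treated 6CD2m cells and 2.29 ± 0.367% in treated 8CDm cells (SD, n = 3, exact two-sided permutation test over samples, p = 0.4, where 0.1 is the smallest that 3 against 3 allows). Mitochondrial rRNAs, which the depletion removes, took 0.00276 ± 0.00175% and 0.00531 ± 0.00583% (SD, n = 3, exact two-sided permutation p = 0.7), and 8CDm replicate 1 alone set the order of these means, since the difference turned from -0.00256 to 0.00072 percentage points without it.

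Long noncoding RNAs were called in 4.17% of 3070 cases, 64 in each direction, below the 9.85% of all genes tested and the 12.3% of protein-coding genes. RP1-101G11.3 stood at 101, 73.2 and 97.9 CPM in treated 6CD2m cells and 0.456, 0.271 and 0.537 CPM in treated 8CDm cells (log2FC 7.73 ± 0.21, adjusted p = 1.62e-12). LINC00355 had no count in treated 8CDm cells and 1.48, 1.42 and 2.06 CPM in treated 6CD2m cells (at least 10.0-fold higher), and LINC00645 had 2 counts in all in treated 8CDm cells (ratio 237, interval 65.1 to 1960). On the 8CDm side RP11-54H7.4 stood at 1.42, 1.42 and 1.39 CPM in treated 6CD2m cells and 51.9, 38.3 and 35.7 CPM in treated 8CDm cells (log2FC -4.89 ± 0.32, adjusted p = 2.37e-08) and PAX8-AS1 at 1.66, 1.17 and 0.946 CPM in treated 6CD2m cells and 28.3, 27.6 and 27.3 CPM in treated 8CDm cells (log2FC -4.46 ± 0.25, adjusted p = 5.5e-09). For PAX8-AS1 the means of the other groups lay between 0.602 and 2.89 CPM, so treated 8CDm cells were the high group. PAX8-AS1 is antisense to PAX8, and the strand setting of the counting is not given in the sources used here, so reads of the pair cannot be told apart. Pseudogenes were called in 3.19% of 1755 cases, also below the 9.85% of all genes tested.

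WT cells on the same inhibitors for 14 days gave a comparison in which the line did not change. There, Tubastatin A against PCI-34051 called 79 genes (0.422%). Of the 1843 genes called between the mutant lines, 35 were among those 79, and 16 of the 35 had the same direction. The difference between the 2 contrasts, tested as an interaction, passed for 945 genes (5.05%), 791 of them among the 1843. CD274 and CSF1 were picked after their values were seen as examples of like and unlike change. CD274 differed by 1.30 ± 0.12 between the mutant lines and by 1.28 between the WT groups (adjusted p = 5.92e-05), and the interaction did not pass (adjusted p = 0.952). CSF1 differed by 1.53 ± 0.10 between the mutant lines and by -0.89 between the WT groups (adjusted p = 0.00011), with an interaction adjusted p of 1.15e-08. Treatment lasted 2 days in the mutant lines and 14 days in WT cells, so the time of exposure differs between the contrasts as well as the line.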

How the data were processed

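RNA was sequenced from 15 HT1080 libraries after rRNA depletion, as paired reads. The authors trimmed reads with Trimmomatic 0.39, aligned them with Bowtie2 2.4.5 and deposited RSEM 1.3.3 expected counts per gene on GRCh38, and the submitters' processing notes also name DESeq2 1.38.2. Of the nonzero values 21.8% were not whole, so reads shared between genes had been split by RSEM, and strand handling is not given in the sources used here. Expected counts were rounded to whole numbers. Every column of per-sample values matched 1 sample.

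Genes were placed with GENCODE 29 by Ensembl identifier (57055 of 60675 matched), and tests were fitted on the whole table. The test was edgeR 4.0.16's quasi-likelihood test over all 15 libraries with 5 group means, TMM factors, filterByExpr and a false discovery rate of 0.001, as in the study. Script steps were tested on simulated data. At the false discovery rate of 0.001, 0 of 200 genes changed 1.5-fold were recovered, 61 of 200 changed 2-fold and 131 of 200 changed 4-fold, with 0 false calls. Each simulation changed only 200 of 19535 genes, whereas 1946 of 19535 were called in the data. The adjusted cutoff was therefore stricter in the simulation, and its shares do not measure recovery in this comparison. A gene that was not called is still not shown to be equal in the 2 groups. The 1 exact permutation test was two-sided, for shares. Groups follow the labels. The study calls its replicates biological, and since the labels do not say whether they were separate cultures, p-values measure only the spread between these libraries, and counting intervals cover counting error only. Members and lists were chosen with earlier results of these data known. Untreated cells were not analysed here.

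Named genes were the 12 protein-coding genes per direction of largest difference with at least moderate level, the 10 most abundant per direction with a log2 fold change of at least 1, up to 4 per direction in each of 60 lists, up to 5 lncRNAs per direction, KDAC genes, and others said to be chosen after their values were seen. DESeq2 1.42.0, upper-quartile scaling, other filters and thresholds, GC offsets, a replicate block, the 6 libraries alone and leaving out each library were the alternatives. R 4.3.3, limma 3.58.1, Python 3.11.15, pandas 2.3.3, scipy 1.17.1 and matplotlib 3.10.9 were used.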

Additional observations from a re-analysis of the deposited data

Results flagged for a closer look

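The contrast of the mutant lines was set against that of WT cells on Tubastatin A and on PCI-34051, and the 2 contrasts differed in 945 genes by an interaction test at a false discovery rate of 0.001. The line and the time of exposure, 2 days or 14 days, both change between these contrasts and cannot be told apart.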

How the results depend on the processing

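The 1843 calls (1015 higher in 6CD2m, 828 higher in 8CDm, interaction 945) were counted again under each alternative. DESeq2 gave 2952 calls (1605 and 1347, interaction 1848), the 6 libraries alone 3982 (2148 and 1834), a false discovery rate of 0.05 gave 4953 (2547 and 2406, interaction 3592), GC offsets gave an interaction count of 1422, and a minimum difference of 1 on the log2 scale left 1158 (769 and 389). Upper-quartile scaling gave 1971 calls with 60.2% higher in 6CD2m, against 55.1%. Leaving out 1 library gave 1182 to 1227 calls, 642 to 727 higher in 6CD2m, 494 to 543 higher in 8CDm and 632 to 674 interaction calls. The mitochondrial rRNA share differed by -0.00486 to 0.00072 percentage points, MT-RNR1 (ENSG00000211459) by -1.51 to 0.37 and MT-RNR2 (ENSG00000210082) by -1.54 to 0.37 on the log2 scale, with the positive values without 8CDm replicate 1. Whether replicate numbers pair the libraries was not settled, since 3 libraries per group are too few to decide it. Same-numbered deviations correlated at 0.124, 0.0917 and -0.0201 (mean 0.065, against -0.033 for different numbers), and 4 of 6 libraries correlated best with their own number. With the replicate block 1358 genes were called (767 and 591, interaction 649), and with the block and GC offsets together 2054 (1162 and 892, interaction 1061). Of 320 named called genes 0 reversed, 194 passed under each alternative that tested them (not all were tested under each), 274 passed with the block, 91 lost the call without some library and 40 without each of the 6. The cause of these shifts was not tested. Depth limits the genes near 0, where a group without a count allows a bound only.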
